A study of Homo sapiens with 6 samples.

Results

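AURKA, AURKB, INCENP, BIRC5, CDCA8 and TPX2 encode the Aurora A and Aurora B kinases, which the drug AT9283 inhibits, and the direct partners of these kinases. They were chosen by name, as the complexes that hold the drug's targets, and are 6 of 19676 genes measured. Gene expression had been measured on 6 Affymetrix arrays of A375 cells, an established human melanoma line with a mutated BRAF gene, with 1 array per condition. At 6 h the cells had received 10 µM vemurafenib with 100 nM AT9283, 100 nM AT9283 alone, 10 µM vemurafenib alone or DMSO, the solvent control. At 16 h they had received 10 µM vemurafenib or DMSO, and no 16 h array held AT9283. Vemurafenib inhibits mutant BRAF, which drives ERK signalling and growth in these cells, and AT9283 inhibits the Aurora kinases together with JAK and ABL kinases.

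Aurora A sits at centrosomes and spindle poles, where it drives centrosome maturation and spindle assembly. TPX2 binds Aurora A, holds it in its active form and brings it to spindle microtubules. Aurora B is the enzyme of the chromosomal passenger complex, in which INCENP is the scaffold and activator, and BIRC5 (survivin) and CDCA8 (borealin) place the complex on the centromere. The passenger complex corrects faulty attachments of chromosomes to the spindle and later directs cytokinesis. Transcripts of these genes are known to accumulate in G2 and mitosis, mainly through the MuvB complex, which binds the CHR element of promoters and works with the NF-Y factor at CCAAT boxes, and through FOXM1. AT9283 acts on the kinase activity of the proteins, whereas the arrays measured RNA.

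The promoters of 3 of the 6 genes were in the RefSeq promoter table (GRCh38.p14), those of AURKB, INCENP and CDCA8. They are shown because all 6 transcripts were lowest on the same array and the CHR element and CCAAT box are the known elements of this gene class. Each sequence is the 160 bases before a RefSeq transcription start, with the letters TTTGAA (CHR) and CCAAT in capitals, searched on both strands, so that CCAAT on the other strand reads ATTGG.
AURKB, chr17:8210250-8210409, minus strand: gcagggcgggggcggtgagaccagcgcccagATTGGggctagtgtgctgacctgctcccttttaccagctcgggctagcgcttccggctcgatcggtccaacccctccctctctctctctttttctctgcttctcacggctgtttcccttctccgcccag
INCENP, chr11:62123851-62124010, plus strand: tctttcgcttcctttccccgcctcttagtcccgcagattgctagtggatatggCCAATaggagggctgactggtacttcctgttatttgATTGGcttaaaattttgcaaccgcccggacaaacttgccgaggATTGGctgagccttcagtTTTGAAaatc
CDCA8, chr1:37692356-37692515, plus strand: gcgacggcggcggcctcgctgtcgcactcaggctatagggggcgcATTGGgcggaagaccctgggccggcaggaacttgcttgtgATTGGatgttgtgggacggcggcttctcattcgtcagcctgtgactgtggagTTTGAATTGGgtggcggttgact

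INCENP held TTTGAA from base -10 to -5 before its start, with CCAAT at -107 and, on the other strand, at -71 and -28. CDCA8 held TTTGAA from -23 to -18 and CCAAT on the other strand at -115, -75 and -18, the last sharing 1 base with TTTGAA. AURKB has 2 entries in the table, and the more upstream of them held CCAAT on the other strand at -129. This AURKB window lies inside the RefSeq gene, which spans 8204731 to 8210575 on the minus strand, before an internal start. The bases before the outermost AURKB start are not shown or searched, so nothing follows from the lack of TTTGAA in the window. Among all 35116 promoters of the table, 7.85% held TTTGAA in the same window on either strand, 24.5% held CCAAT and 2.14% held both. These matches describe letters in a window and do not show binding.

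The deposited values are probe set intensities, given below as log2. Of 12 probe sets that name 1 of the 6 genes alone, the one with the highest mean was used for each gene, and the others served as a check. All 6 probe sets used lay above log2 6, an intensity of 64, on all 6 arrays. With 1 array per condition a difference between conditions has no replicate check, so calls rest on size alone. "Fell" and "rose" are used of genes that differed by 1 or more in log2 (2-fold) and reached the floor of log2 6 on the higher array, and a smaller size of 0.5 (1.41-fold) was counted beside it. Across genes at the floor the SD of the differences was 0.13 between AT9283 and DMSO at 6 h, and 0.24 between the DMSO arrays at 16 h and 6 h. Median intensity per array was 19.79 to 21.29. SOX10, MITF and VIM lay above log2 6 on all 6 arrays, whereas the pigment genes MLANA, PMEL and TYR lay below it on all 6, as did PTPRC, PECAM1, EPCAM and ALB, markers of other cell types. The fibroblast marker COL1A1 lay above it on all 6 arrays. The array of vemurafenib at 16 h, the lowest for all 6 genes below, was also the only one where the keratinocyte marker KRT5 (log2 6.40, against 5.16 in DMSO at 16 h) and the melanocyte marker S100B (6.15, against 5.93) reached log2 6, and their part in the results was not tested.

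Among the levels across the 6 arrays, the vemurafenib array at 16 h was the lowest for all 6 genes. The share of all genes lowest on that array was not counted. On it 50.0% of 9469 genes lay below DMSO at 16 h, a share for that pair of arrays alone. AURKA had a log2 level of 11.11 under both drugs, 10.90 under AT9283, 10.75 under vemurafenib and 10.77 in DMSO at 6 h, and of 9.94 under vemurafenib and 10.57 in DMSO at 16 h. The 2 arrays with AT9283 were its highest. AURKB had 9.38 under both drugs, 9.38 under AT9283, 9.39 under vemurafenib and 9.40 in DMSO at 6 h, and 8.33 under vemurafenib and 9.29 in DMSO at 16 h. Its 5 arrays other than vemurafenib at 16 h lay between 9.29 and 9.40. INCENP had 7.84 under both drugs, 7.77 under AT9283, 7.59 under vemurafenib and 7.82 in DMSO at 6 h, and 7.31 under vemurafenib and 7.65 in DMSO at 16 h. Its vemurafenib array at 6 h lay below DMSO at 16 h.

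BIRC5 had a log2 level of 10.21 under both drugs, 10.01 under AT9283, 10.10 under vemurafenib and 9.98 in DMSO at 6 h, and of 9.14 under vemurafenib and 9.70 in DMSO at 16 h. CDCA8 had 9.63 under both drugs, 9.36 under AT9283, 9.42 under vemurafenib and 9.22 in DMSO at 6 h, and 8.67 under vemurafenib and 9.02 in DMSO at 16 h. For BIRC5 and CDCA8, as for AURKA, AURKB and TPX2 but not INCENP, both 16 h arrays lay below all 4 arrays of 6 h. The share of all genes with that order was not counted, and 57.2% of 9055 genes were lower in DMSO at 16 h than at 6 h. Time and array processing cannot be told apart in that order. TPX2 had 10.07 under both drugs, 9.97 under AT9283, 10.12 under vemurafenib and 9.94 in DMSO at 6 h, and 9.72 under vemurafenib and 9.90 in DMSO at 16 h. TPX2 had the narrowest range of the 6, 0.395 on the log2 scale, and AURKA the widest, 1.17.

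**Figure D1:**
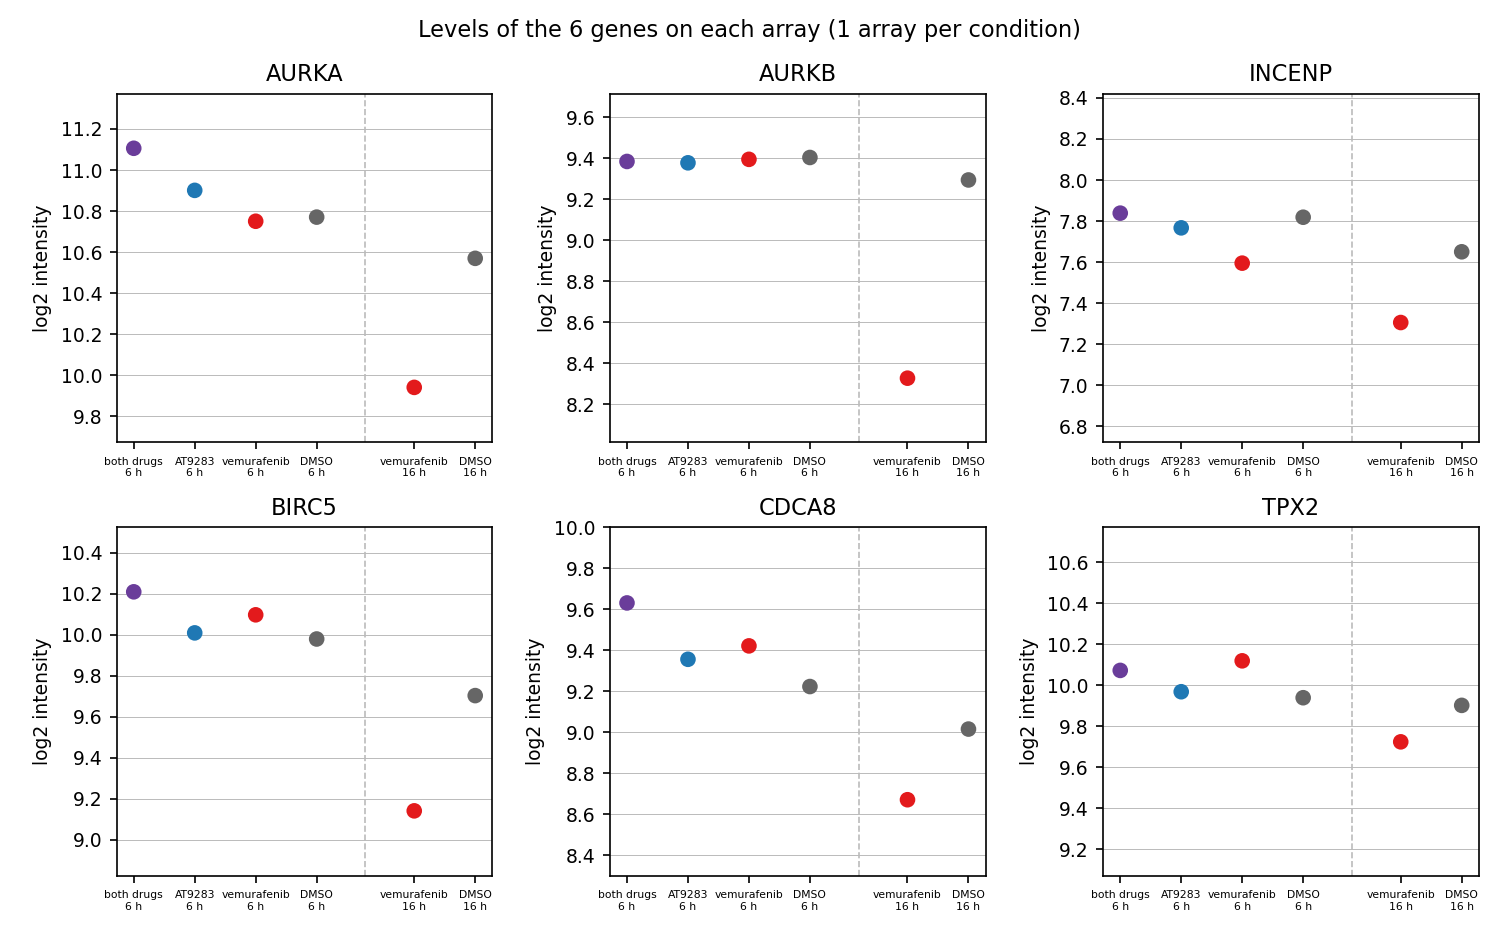
Log2 intensity (y axis) of the 6 genes on each of the 6 arrays, 1 point per array, with the 6 h conditions left of the dashed line and the 16 h conditions right of it; every panel spans the same 1.7 log2 units. The vemurafenib array at 16 h is the lowest point in all 6 panels, and AURKA, INCENP, BIRC5 and CDCA8 have their highest point under both drugs.

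AT9283 alone left the RNA of its own target complex close to the DMSO level at 6 h. AURKA differed by 0.13 and CDCA8 by 0.13 on the log2 scale, BIRC5 and TPX2 by 0.03 each, AURKB by -0.03 and INCENP by -0.05. None of the 6 passed either size, at which 0.0224% of 8938 genes passed 1 and 0.302% passed 0.5. The median of the 6 differences was 0.03, against 0.01 for all genes with a mean of at least log2 6. AURKA lay above 83.2% of the tested genes, with 0.14 on its second probe set and 0.04 on the remaining one, which lay below the floor. AURKC, an Aurora kinase known mainly from germ cells, lay below the floor on all 6 arrays, at log2 4.41 under AT9283 and 4.55 in DMSO. Of the other kinases that AT9283 inhibits, ABL1 differed by -0.08, while JAK3 and FLT3 lay below the floor on all 6 arrays and JAK2 reached it on 2.

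Vemurafenib at 6 h also left the 6 transcripts near DMSO. CDCA8 differed by 0.20, TPX2 by 0.18, BIRC5 by 0.12, AURKB by -0.01, AURKA by -0.02 and INCENP by -0.22. None passed a size of 1 or 0.5, which 3.18% and 11.4% of 9095 genes did. In the same comparison DUSP6, a phosphatase induced by ERK, fell to log2 4.28 under vemurafenib, against 9.50 in DMSO, and CCND1, the cyclin that ERK induces, fell to 7.56, against 10.14. The median of the 6 genes was 0.05, against 0.02 for all genes.

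Under both drugs AURKA, INCENP, BIRC5 and CDCA8 had their highest level of all arrays, whereas AURKB stayed at the DMSO level. The share of all genes highest on that array was not counted. On it 59.7% of 9076 genes lay above DMSO at 6 h, a share for that pair of arrays alone. Relative to DMSO at 6 h CDCA8 differed by 0.41, AURKA by 0.34, BIRC5 by 0.23, TPX2 by 0.13, INCENP by 0.02 and AURKB by -0.02. None passed a size of 1 or 0.5, which 2.57% and 9.09% of 9076 genes did. Set against vemurafenib alone, AURKA differed by 0.36 and lay above 96.6% of 8999 genes, INCENP by 0.24, CDCA8 by 0.21, BIRC5 by 0.11, AURKB by -0.01 and TPX2 by -0.05. Here too none passed 1 or 0.5, against 0.322% and 2.10% of genes. The AURKA difference on its second probe set was 0.36 as well, and on the remaining one, which lay below the floor, 0.27. Set against AT9283 alone, CDCA8 differed by 0.27, AURKA by 0.21, BIRC5 by 0.20, TPX2 by 0.10, INCENP by 0.07 and AURKB by 0.01, and none passed 1 or 0.5, against 2.42% and 8.19% of 9073 genes. These comparisons share arrays, so their values are not independent of each other.

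The vemurafenib difference at 6 h can be read without and with AT9283. For AURKA it was 0.21 with AT9283 and -0.02 without, and for INCENP 0.07 with AT9283 and -0.22 without. The gap of 0.30 for INCENP lay above 96.6% of 8885 genes and that of 0.23 for AURKA above 92.5%. For AURKB, BIRC5, CDCA8 and TPX2 the gaps were 0.02, 0.08, 0.08 and -0.08. A single array stands behind each of the 4 values in a gap, which leaves no residual degree of freedom at 6 h alone. A limma fit over all 6 arrays with a vemurafenib-by-AT9283 term, added after the values were seen, has 1 residual degree of freedom but averages the vemurafenib difference over both times. It called 0 of 9707 genes, with 39 at an unadjusted p under 0.05, and every one of the 6 had an adjusted p of 0.999 (0.53 for AURKA, SE 0.33, and 0.36 for INCENP, SE 0.22).

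After 16 h of vemurafenib all 6 transcripts lay below DMSO, and AURKB by the most. AURKB differed by -0.97 on the log2 scale (1.95-fold lower), just short of the size rule, AURKA by -0.63, BIRC5 by -0.56, CDCA8 and INCENP by -0.34 each, and TPX2 by -0.18. Thus 0 of 6 fell by the size rule, against 5.79% of 9469 genes, and 3 of 6, AURKB, AURKA and BIRC5, were lower by at least 0.5, against 18.0%. The other BIRC5 probe sets did not reach 0.5, at -0.4049, -0.4958 and -0.4941. A negative sign alone, found in 6 of 6, was found in 50.0% of those genes. AURKB passed the size rule, at -1.01, when each array was centred on its median, and differed by -0.55 when averaged with its second probe set, which lay below the floor. AURKB was lower than 93.7% of all tested genes, AURKA than 86.6%, BIRC5 than 84.4%, CDCA8 than 74.9%, INCENP than 74.9% and TPX2 than 64.4%. The 6 genes had a median of -0.45, against -0.03 for all genes with a mean of at least log2 6. In bulk RNA, fewer cells in G2 and mitosis and less of each transcript per cell cannot be told apart.

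**Figure D2:**
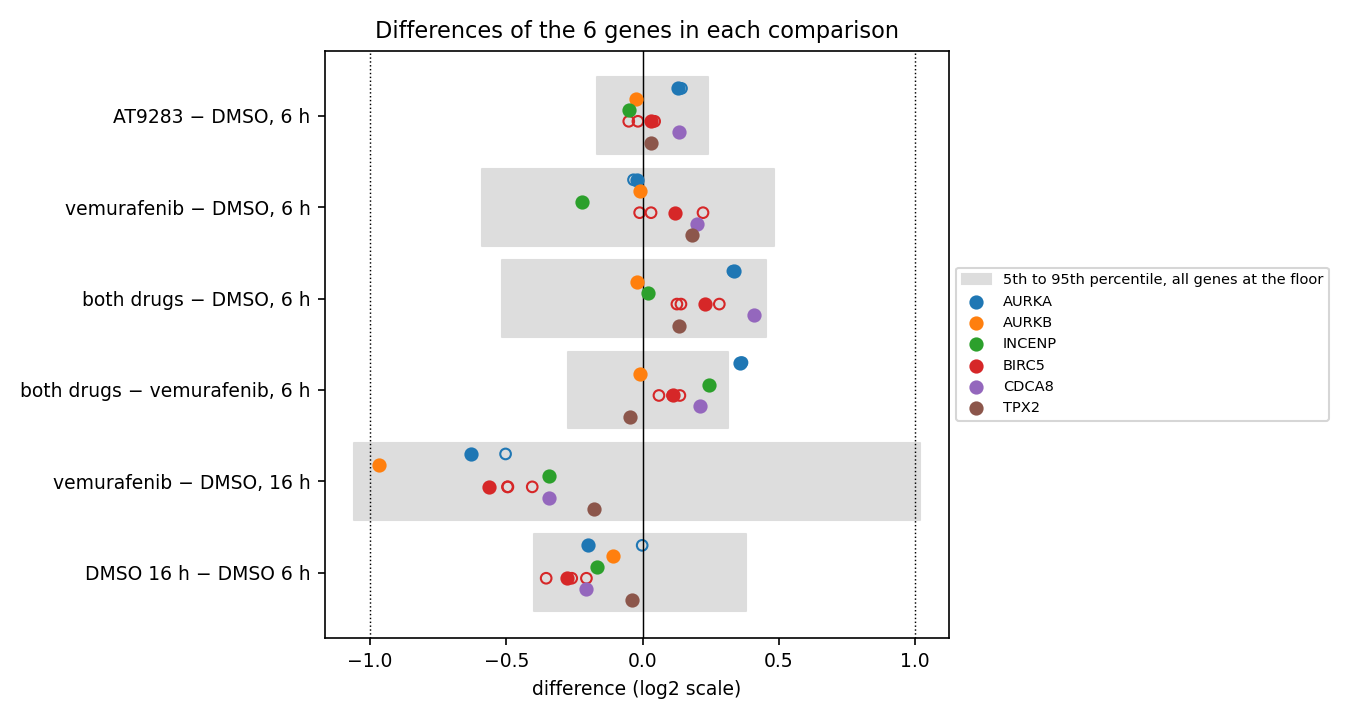
Difference on the log2 scale (x axis) of each of the 6 genes in 6 comparisons (rows), filled points for the probe set used and open points of the same colour for other probe sets at log2 6 or more on at least 5 arrays; grey bars span the 5th to 95th percentile of all genes tested, and dotted lines mark differences of 1. The points lie on both sides of 0 in the 6 h comparisons and all lie left of 0 for vemurafenib minus DMSO at 16 h, where AURKB is at -0.97.

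Without drug, too, the 6 genes had lower values at 16 h than at 6 h, by smaller amounts. DMSO at 16 h minus DMSO at 6 h was -0.28 for BIRC5, -0.21 for CDCA8, -0.20 for AURKA, -0.17 for INCENP, -0.11 for AURKB and -0.04 for TPX2. All 6 signs were negative here, as were those of 57.2% of 9055 genes, but that of TPX2 turned positive (0.04) with quantile normalization. None passed 0.5, against 4.35%. The second AURKA probe set had -0.0017 in this pair, against -0.20 on the one used, and AURKB averaged with its second probe set had -0.49, against -0.11. No source used here states whether RMA was run on both times at once. For the DMSO pair, time and array processing thus cannot be told apart. The same holds for the vemurafenib array at 16 h set against that at 6 h, given next. The comparisons among the 6 h arrays, and that of vemurafenib with DMSO at 16 h, do not set a 16 h array against a 6 h array. The vemurafenib array at 16 h minus that at 6 h, a comparison added after the values were seen, gave -1.07 for AURKB, -0.96 for BIRC5, -0.81 for AURKA, -0.75 for CDCA8, -0.40 for TPX2 and -0.29 for INCENP. AURKB thus fell, 1 of 6 against 3.70% of 9401 genes lower by that size, and 4 of 6 were lower by 0.5, against 16.6%. AURKB missed the size with quantile normalization (-0.93).

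For all 6 genes the vemurafenib difference was lower at 16 h than at 6 h. So it was for 4867 of 8885 genes, including all 24 other mitosis genes and all 27 DNA replication genes described below. The difference at 16 h less that at 6 h was -0.96 for AURKB, -0.68 for BIRC5, -0.61 for AURKA, -0.54 for CDCA8, -0.36 for TPX2 and -0.12 for INCENP. For AURKB only 2.67% of 8885 genes were lower, for BIRC5 6.71% and for AURKA 8.59%, whereas INCENP had 40.4% of genes below it. INCENP was already at -0.22 at 6 h. On the probe sets used, BIRC5, CDCA8 and TPX2 were above DMSO at 6 h and below it at 16 h. A limma fit over all 6 arrays with a vemurafenib-by-time term, also added after the values were seen, averages the 6 h difference without and with AT9283. It called 5 of the 6 genes, against 29.2% of 9707 genes. The term was -0.97 for AURKB (SE 0.08, adjusted p 0.00283), -0.72 for AURKA (SE 0.10, adjusted p 0.00845) and -0.72 for BIRC5 (SE 0.08, adjusted p 0.00456) in this limma fit. CDCA8 had -0.58 (adjusted p 0.00938), TPX2 -0.32 (adjusted p 0.0326) and INCENP, which was not called, -0.27 (adjusted p 0.245) in the same limma fit. TPX2 was not called with quantile normalization (limma adjusted p 0.0543) or without a trended prior (0.0976). The 1 residual degree of freedom of this fit is the gap between the 6 h vemurafenib differences without and with AT9283, not replicate error.

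A limma fit of vemurafenib against DMSO took the 6 h and 16 h arrays as blocks, which leaves 1 residual degree of freedom, on 9651 genes. For vemurafenib it gave -0.49 for AURKB (SE 0.27, Benjamini-Hochberg adjusted p 0.335), -0.32 for AURKA (SE 0.19, adjusted p 0.362) and -0.28 for INCENP (SE 0.13, adjusted p 0.266). BIRC5 had -0.22 (adjusted p 0.559), CDCA8 -0.07 (adjusted p 0.842) and TPX2 0.00 (adjusted p 0.997) in the same limma fit. None of the 6 genes was called, against 1.17% of the genes tested. A limma fit of main effects over all 6 arrays, with 2 residual degrees of freedom, called none of the 6 for vemurafenib, against 4.77% of 9707 genes. Its AT9283 term averages AT9283 minus DMSO and both drugs minus vemurafenib. For AT9283 it called 0 of all genes, with 225 at an unadjusted p under 0.05, and gave 0.24 for AURKA (SE 0.22, adjusted p 0.999), 0.17 for CDCA8 (SE 0.18) and -0.02 for AURKB (SE 0.28). The residual of both fits holds the change of the vemurafenib difference with time. That of the fit over all 6 arrays also holds its change with AT9283. Neither residual is replicate error.

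All probe sets of the 6 genes gave a negative vemurafenib difference at 16 h. For AURKA the vemurafenib difference at 16 h was -0.63 on the probe set used and -0.50 on the second. The remaining AURKA probe set, below the floor on all 6 arrays, gave -0.47. For BIRC5 the 4 probe sets gave -0.5619, -0.4049, -0.4958 and -0.4941, so only the probe set used was lower by 0.5. The second AURKB probe set lay below the floor on all arrays (log2 3.41 under vemurafenib and 3.54 in DMSO at 16 h) and gave -0.13, so the AURKB difference rests on 1 probe set. INCENP, CDCA8 and TPX2 had 1 probe set each. RefSeq lists AURKAP1, a transcribed pseudogene of AURKA on chromosome 1, and whether AURKA probe sets also read it was not tested.

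**Figure D3:**
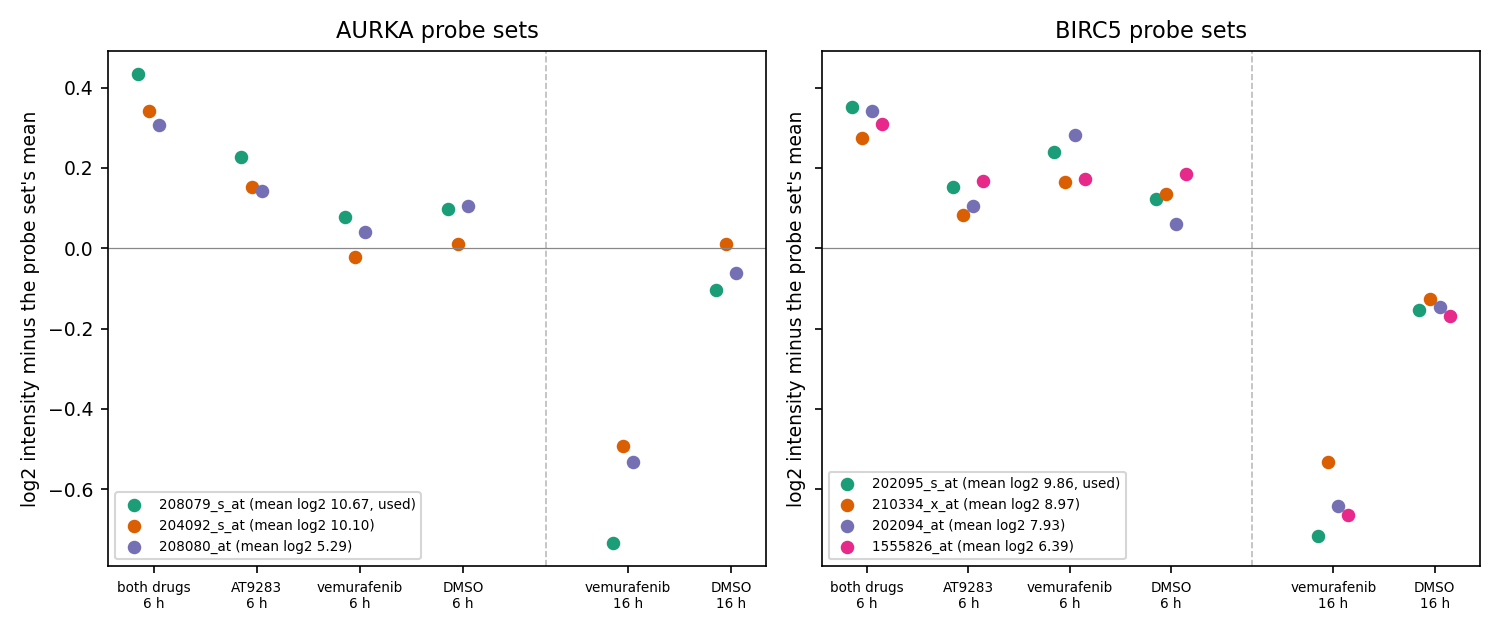
Log2 intensity minus the probe set's own mean (y axis) on each array (x axis) for the 3 AURKA and 4 BIRC5 probe sets, 1 colour per probe set. The vemurafenib array at 16 h is the lowest for all 7 probe sets, and the array with both drugs the highest.

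The 6 genes had like profiles across the arrays, though pairs of other genes were not computed for comparison. Pearson's r between pairs of them over the 6 arrays ran from 0.66 for INCENP with TPX2 to 0.97 for AURKA with BIRC5, a description that rests in part on the single vemurafenib array at 16 h. Among 8879 other genes with a mean of at least log2 6, the profiles most like the mean of the 6 were those of GTPBP6 (r = 0.999), ITGB1BP1, XPNPEP1, DNM1L, SMC6, MIS18A, FDX2 and MRPL38 (r = 0.996). SMC6 is part of a complex that maintains chromosome structure and MIS18A helps to load the centromere histone CENPA. For AURKB alone the 3 nearest were ASF1B, a histone chaperone of S phase (r = 0.9999), QRICH1 and the replication helicase subunit MCM4 (r = 0.999). For AURKA they were CTCF, GAP43 and USP13, and for BIRC5 SAC3D1, PITHD1 and SLX4. INCENP was nearest to RNF8, HPDL and RPUSD1, CDCA8 to DHX29, EIF3I and CRCP, and TPX2 to EXOSC8, JADE1 and MTR. These ranks rest on 6 arrays, and shared function does not follow from them.

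Genes that act with the complex were then described by list. Among all genes tested, 5.79% were lower and 5.19% higher by the size rule after 16 h of vemurafenib, and 18.0% were lower by 0.5. Of 13 measured activators and spindle partners of Aurora A, 0 rose and 0 fell after 16 h of vemurafenib, with a median of -0.01. TACC3, which Aurora A recruits to spindle microtubules, was lowest at -0.74, and the spindle pole organiser NUMA1 highest at 0.55. Of 15 genes of passenger complex recruitment and removal that reached the floor, 1 fell and 0 rose, and 8 were lower by 0.5, with a median of -0.50. The one that fell was HASPIN, the kinase that marks histone tails for survivin, at log2 5.06 under vemurafenib, below the floor, and 6.38 in DMSO. USP9X, a deubiquitinase of survivin, was highest at 0.76. Of 14 Aurora B substrates, DSN1 of the kinetochore (-1.14) and KIF23 of the midzone (-1.04) fell, CHMP4C, which delays abscission, rose (1.40), and the median was -0.22.

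The next lists hold regulators of the amount of these proteins and transcripts. Of 12 genes of the mitotic ubiquitin ligases, which degrade Aurora A and other mitotic proteins, FBXO5, an inhibitor of the anaphase-promoting complex, fell (-1.04), and FBXL7, which targets Aurora A and survivin, was highest at 0.86. CDC20 was not measured here because its row was left out with the misaligned blocks. Of 10 MuvB and FOXM1 factors at the floor, RBL1 (-1.22) and LIN9 (-1.03) fell after 16 h of vemurafenib, both to levels below the floor, and LIN37 was highest at 0.49, with a median of -0.12. In the 6 h comparisons of AT9283 with DMSO and of both drugs with vemurafenib, no gene of these 5 lists passed the size rule, which 0.0224% and 0.322% of all genes did. SGO2, which protects centromere cohesion and helps to recruit the passenger complex, was their highest in both, at 0.26 and 0.45.

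The median of the 6 genes after 16 h of vemurafenib, -0.45, lay nearer to that of other mitosis genes than to that of DNA replication genes. After 16 h of vemurafenib the 24 other mitosis genes had a median of -0.27, with 4 that fell (MAD2L1 at -1.21, SPC25 at -1.15 and NCAPH at -1.13 the lowest) and 9 lower by 0.5, against 3 of the 6 genes. Of all genes 5.79% fell and 18.0% were lower by 0.5. The 27 replication genes had a median of -1.57, with 23 that fell, CCNE2 (-3.26), MCM10 (-3.16) and CDC25A (-2.63) the lowest. POLA1, the highest replication gene at -0.52, was thus near AURKA and BIRC5. At 6 h the medians were 0.05 for the 6 genes, 0.17 for other mitosis genes and -0.06 for replication genes, and none of the 3 lists had a gene over the size rule, which 3.18% of all genes passed. Under both drugs against DMSO at 6 h the 6 genes had a median of 0.18 and the other mitosis genes one of 0.18, against 0.05 for all genes. No difference between the lists was tested.

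**Figure D4:**
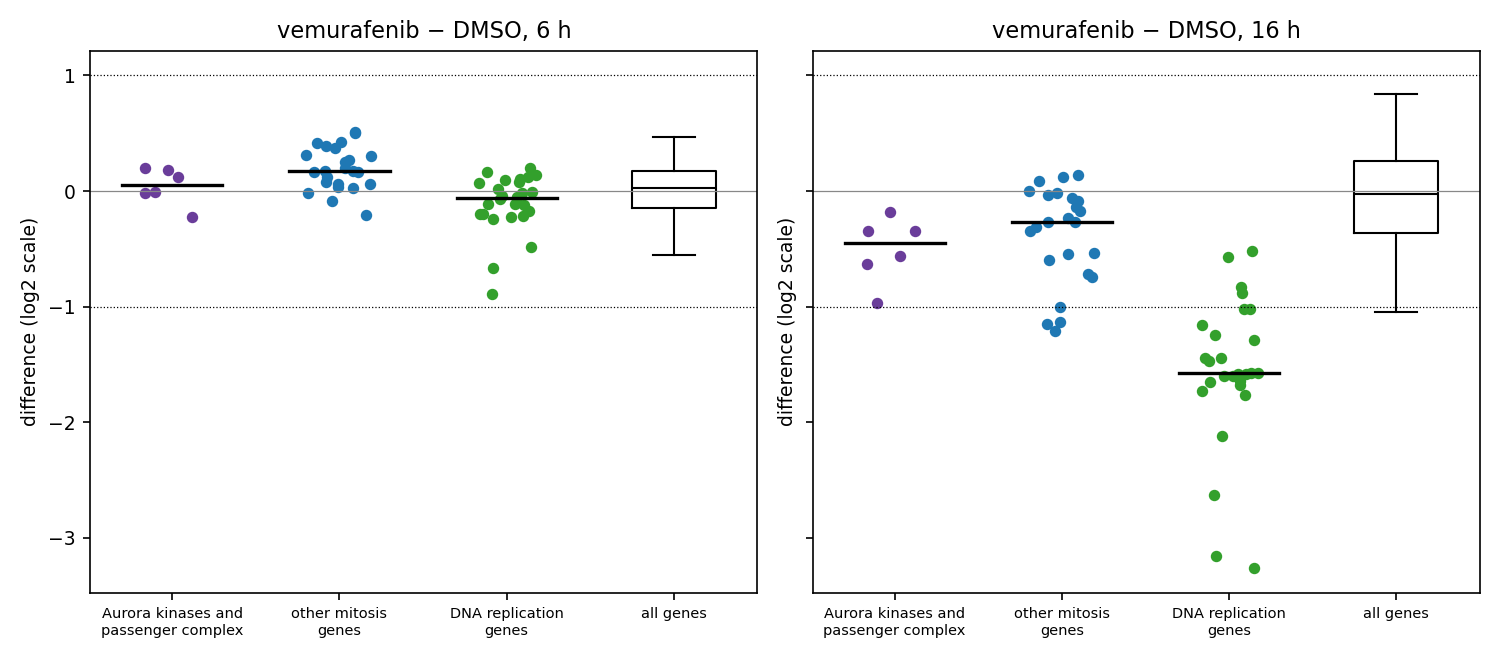
Difference of vemurafenib minus DMSO on the log2 scale (y axis) at 6 h (left) and 16 h (right), 1 point per gene with a mean of at least log2 6, black bars at list medians, and a box for all 8885 genes with whiskers at the 5th and 95th percentiles. At 16 h the medians are -0.45 for the 6 genes, -0.27 for other mitosis genes and -1.57 for DNA replication genes.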

How the data were processed

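The deposited intensity values came from 6 Affymetrix arrays of labelled cRNA. RMA is the only tool in the submitters' processing notes, with no version or later step named. RMA yields log2 values, so the deposited intensities had been returned to a linear scale. Of 54675 probe sets, 41097 had 1 gene symbol and 1801 had several in the platform annotation, and symbols were updated through gene identifiers to RefSeq. Rows in 6 blocks (1118 probe sets) carried 6 h values of another row. Over them the DMSO arrays had an r of 0.455 as deposited and 0.984 with the other order, against 0.992 elsewhere, so these rows and 62 control probe sets were left out. None of the 12 probe sets of the 6 genes lay there.

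Values were taken to log2, with the probe set of the highest mean per gene. The fits used limma 3.58.1 in R 4.3.3 with a trended prior, on genes with at least 1 array at log2 6, and were tested on simulated data. Fits with a vemurafenib-by-AT9283 or vemurafenib-by-time term were added after the values were seen. Fold sizes, alternatives and lists of related genes were written down with earlier results of these data known, and so were the 6 genes. Genes named in the text are the 6, the highest and lowest of each list (up to 3 in each direction over the size rule), ERK targets as a drug check, and those with the most similar profile. The number of arrays limits the precision.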

Additional observations from a re-analysis of the deposited data

Results flagged for a closer look

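On the probe sets used, BIRC5, CDCA8 and TPX2 lay on opposite sides of DMSO at the 2 times of vemurafenib. These 3 genes were picked by that change of sign, so the limma vemurafenib-by-time fit on the same arrays is no separate check. That fit, described above, has 1 residual degree of freedom that is not replicate error. BIRC5 differed by -0.56 at 16 h and by 0.12 at 6 h, a change of -0.68. Its other probe sets gave 0.03, 0.22 and -0.01 at 6 h, so the last did not change sign. CDCA8 differed by -0.34 at 16 h and by 0.20 at 6 h, a change of -0.54. TPX2 differed by -0.18 at 16 h and by 0.18 at 6 h, a change of -0.36.

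The AT9283 difference at 6 h had opposite signs with and without vemurafenib for INCENP and TPX2. The limma fit with a vemurafenib-by-AT9283 term, which also averages over time, called neither (adjusted p 0.999 for both). INCENP differed by 0.24 when AT9283 was added to vemurafenib and by -0.05 for AT9283 alone, a gap of 0.30. Of 8885 genes, 7.88% had a larger gap in either direction. TPX2 differed by -0.05 and 0.03 in the same order, a gap of -0.0759, and 57.1% of the 8885 genes had a larger one in either direction.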

How the results depend on the processing

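Of 440 recomputed differences of the 6 genes, 11 had another sign than in the report. All 11 were reported between -0.05 and 0.01 and recomputed between -0.10 and 0.10. Settings that only removed the floor, or only changed how the misaligned rows were handled, could not move these differences. None of the 12 probe sets of the 6 genes lay in those rows. The 440 thus include values fixed in advance, and 11 of 440 is no measure of stability. For vemurafenib at 16 h, 0 of 6 genes passed a size of 1, against 1 with arrays centred on their median or when DMSO was averaged over both times (AURKB, -1.01 and -1.02) and 3 at a size of 0.5. Averaging its 2 probe sets put AURKB at -0.55, against -0.97. The 3 genes lower by 0.5 became 1 of 4 without probe sets marked _s_at or _x_at. For vemurafenib at 16 h against 6 h, 1 gene became 2 with median centring, 0 with quantile normalization or the mean of probe sets, and 4 at a size of 0.5. The count at 0.5 became 2 of 4 without the marked probe sets, and quantile normalization gave medians of -0.62 for the 6 genes and -1.54 for replication genes, against -0.78 and -1.69. Median centring turned the split over all genes in that comparison, 387 higher and 348 lower, into 320 and 449. With DMSO averaged over both times, 1 gene under both drugs (CDCA8, 0.51) passed 0.5. The limma fit over both times called 43 genes without a trended prior, against 113, and none of the 6 genes in any setting. The fit with a vemurafenib-by-time term called 1801 genes without a trended prior, against 2832, and TPX2 was not called there or with quantile normalization. The cause of these shifts was not tested. Samples could not be paired by replicate number because each condition had 1 array, so time was the only block, and no array could be left out of a condition.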
